A study of Mus musculus with 6 samples.

Results

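Ifi27l2a is an interferon-inducible gene that read higher in each of 3 pools of Igf1 null mouse cochleae than in each of 3 wild type pools, and 8 further interferon-inducible genes are set beside it here: Ifit1, Ifit2, Ifit3, Isg15, Irf7, Bst2, Ifitm3 and Usp18. Members were all probe sets annotated to 1 of these genes alone. Of the 9 genes, 8 had 1 such probe set each, among 12393 genes with a single-gene probe set in all. The probe set of Isg15 was annotated to a second gene as well, so Isg15 has no value. Ifi27l2a was chosen by its log2 signal in these same 6 arrays, being higher in each null pool, so its values are a description and carry no test. The other 7 measured genes were listed by function, though with earlier results of these data known. Their tests ask whether they differed between the genotypes too.

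The 2 groups were cochleae of Igf1 +/+ and of Igf1 -/- mouse embryos at E18.5, from crosses of heterozygous parents on a C57BL/6J background. Igf1 encodes insulin-like growth factor 1. Each sample was RNA from 4 cochleae with the bony otic capsule and without vestibular tissue, hybridised to 1 Affymetrix array, and the 3 pools of a genotype were independent. A second label field marks the null samples as Igf-1 +/+ and gives an age of E18.6 for wild type replicate 2, so the groups here follow the titles. Levels below are log2 signals after quantile normalization, and differences are null minus wild type.

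Interferons are secreted proteins that alert cells to viruses. Type I interferons bind a receptor made of Ifnar1 and Ifnar2, whose kinases activate transcription factors. These switch on genes through a DNA sequence called the interferon-stimulated response element. The induced genes hinder viral entry, RNA translation and particle release, and some of them regulate the response itself.

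Over the whole comparison limma called 0 of 22626 probe sets at a Benjamini-Hochberg adjusted p of 0.05 (0% called), and 1130 (4.99%) had an unadjusted p under 0.05. Igf1 read lower in every null array at each of its 3 probe sets, with log2 differences of -0.46, -0.55 and -0.99. The part of the gene that was deleted is not in the labels, so this leaves the genotype of the pools unchecked. Markers of the labelled tissue were detected: 5 of 7 hair cell genes, 7 of 8 supporting cell genes and 6 of 6 cartilage and bone genes lay above background in both groups. Background was taken from 72 probe sets of 68 smell, pheromone and taste receptor genes. A mean was called above it when it passed the 95th percentile of their group means, 3.63 in wild type and 3.22 in null.

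Ifi27l2a encodes a small hydrophobic membrane protein of the Ifi27 family that is strongly induced by type I interferon. Its log2 signal was 4.98, 5.06 and 5.20 in wild type replicates 1 to 3. In null replicates 1 to 3 Ifi27l2a was 6.14, 5.91 and 6.10. The groups did not overlap, and a gap of 0.71 lay between the highest wild type and the lowest null value. On the values as deposited they did not overlap either, from 5.16 to 5.23 in wild type and from 5.60 to 6.15 in null arrays. Wild type arrays averaged 5.08 ± 0.11 (SD, n = 3), null arrays 6.05 ± 0.12 (SD, n = 3), which differ by 0.97 or 1.96-fold. Of 9518 genes above background in both groups, 544 (5.72%) had all null arrays higher, and 0 of them had a wider gap than Ifi27l2a. Its difference ranked 14 among the 9518 in the upward direction. These ranks restate the choice of the gene and support nothing.

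**Figure D1:**
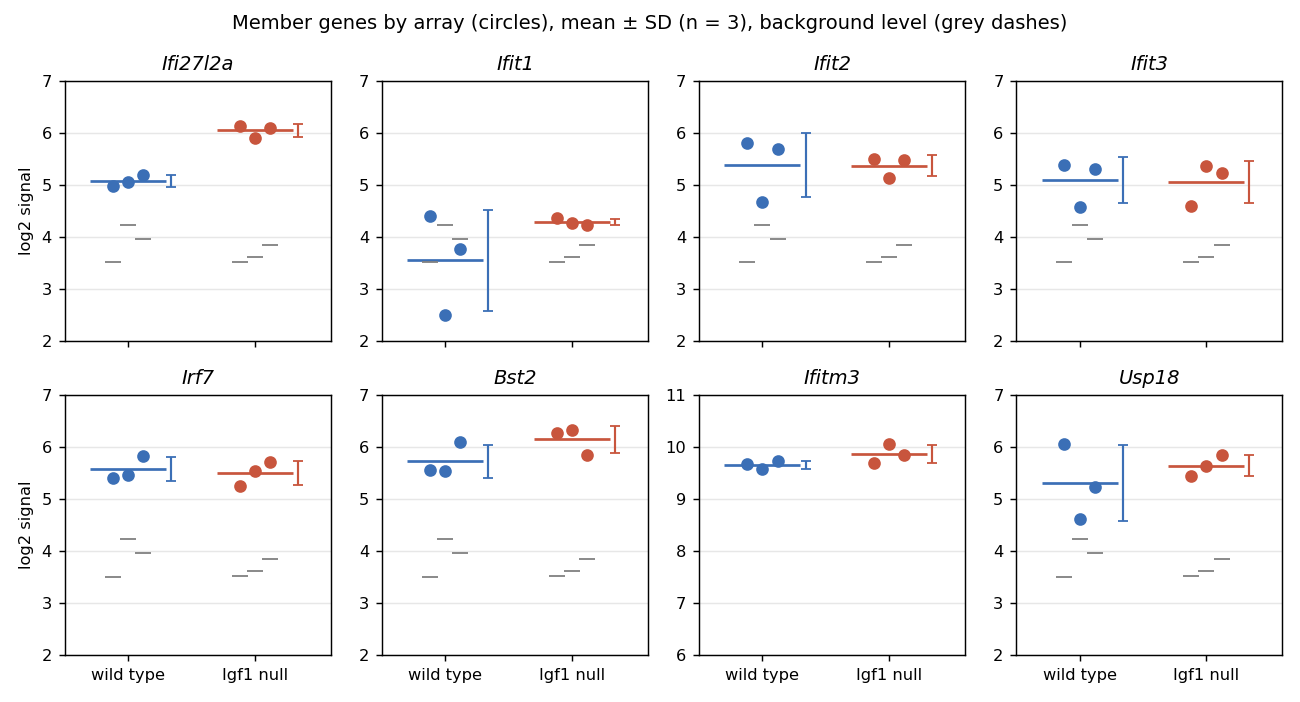
Log2 signal of the 8 measured genes in each of the 6 arrays (circles), with the group mean (line), SD (bar, n = 3) and, as grey dashes, the 95th percentile of the receptor background in the same array. Ifi27l2a separates the genotypes, with null arrays at 5.91 or higher and wild type arrays at 5.20 or lower, while the groups overlap for the other 7 genes; Ifitm3 is drawn on its own axis of equal span, above its background.

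The null and wild type arrays overlapped for each of the other 7 genes. Over all genes 10.6% did not overlap, so a count of 0 of 7 is near the share of all genes. Read higher on average in the null pools were 4 (Ifit1, Bst2, Ifitm3 and Usp18), and 3 were lower (Ifit2, Ifit3 and Irf7). Their median difference was 0.21, against 0.0062 over all genes, and -0.012 without wild type replicate 2. In limma 0 of 7 passed the adjusted threshold and 0 of 7 had an unadjusted p under 0.05, where 4.46% of all genes did. The unadjusted count was 2 without wild type replicate 1 (Ifit1 at 0.045 and Usp18 at 0.046) and 1 without wild type replicate 3 (Bst2 at 0.038), with limma adjusted p-values of 0.920 or more. In bulk tissue fewer cells of a type and less RNA per cell cannot be told apart.

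Bst2, or tetherin, is a membrane protein that holds budding virus particles on the cell surface. Its log2 signal was 5.55, 5.53 and 6.09 in wild type and 6.27, 6.33 and 5.85 in null replicates 1 to 3. Wild type replicate 3 lay above null replicate 3, so the groups overlapped by that pair of arrays. Bst2 differed by 0.42 ± 0.23 (SE), with a 95% interval from -0.15 to 0.99 and a limma adjusted p of 0.980.

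Ifitm3 sits in endosomal membranes and blocks the fusion of entering viruses. It read 9.68, 9.58 and 9.73 in wild type and 9.69, 10.05 and 9.86 in null pools. Null replicate 1 lay within the wild type range and the other null arrays lay above it. The difference was 0.21 ± 0.14 (SE), with an interval from -0.14 to 0.55 (limma adjusted p = 0.980).

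Ifit1, Ifit2 and Ifit3 belong to a family of cytoplasmic proteins with tetratricopeptide repeats, of which Ifit1 binds viral RNA lacking the normal cap modification. Ifit1 read 4.40, 2.49 and 3.77 in wild type and 4.36, 4.27 and 4.23 in null replicates 1 to 3. The mean of Ifit1 was not above background in wild type, at 3.55 ± 0.97 (SD, n = 3), and was above it in null pools, at 4.29 ± 0.07 (SD, n = 3). Its difference of 0.73 ± 0.50 (SE, limma adjusted p = 0.980) was 0.21 without wild type replicate 2 and 1.16 without wild type replicate 1. Because the wild type mean was not above background, the size of the difference is not determined.

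Ifit2 read 5.80, 4.67 and 5.69 in wild type and 5.50, 5.13 and 5.48 in null pools. Its means were 5.39 ± 0.62 and 5.37 ± 0.21 (SD, n = 3), and the null values lay inside the wild type range. Ifit3 read 5.38, 4.58 and 5.31 in wild type and 4.60, 5.36 and 5.23 in null pools, again inside the wild type range. The differences were -0.012 ± 0.34 (SE) for Ifit2 and -0.028 ± 0.32 for Ifit3, both with a limma adjusted p of 0.998. Mouse Ifit3 has a close copy, Ifit3b, and cross-hybridisation between them was not tested.

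Irf7 is the transcription factor that amplifies type I interferon production, and its own gene is induced by interferon. It read 5.41, 5.47 and 5.84 in wild type and 5.25, 5.54 and 5.71 in null replicates 1 to 3. The 2 sets of values interleave, with a difference of -0.07 ± 0.19 (SE), an interval from -0.55 to 0.40 and a limma adjusted p of 0.995.

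Usp18 encodes the protease that removes the ubiquitin-like protein Isg15 from its targets and that also restrains signalling at the type I receptor. It read 6.07, 4.62 and 5.24 in wild type and 5.45, 5.63 and 5.85 in null replicates 1 to 3. The null arrays lay inside the spread of the wild type arrays, 5.31 ± 0.73 against 5.64 ± 0.20 (SD, n = 3). The difference of 0.33 ± 0.39 (SE, limma adjusted p = 0.985) was -0.012 without wild type replicate 2 and 0.72 without wild type replicate 1.

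The 95% intervals of all 7 genes included 0. Their half-widths ran from 0.34 for Ifitm3 to 1.25 for Ifit1. The upper bounds were 0.40 for Irf7, 0.55 for Ifitm3, 0.77 for Ifit3, 0.85 for Ifit2, 0.99 for Bst2, 1.31 for Usp18 and 1.99 for Ifit1, so these arrays bound an increase most closely for Irf7 and Ifitm3.

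**Figure D2:**
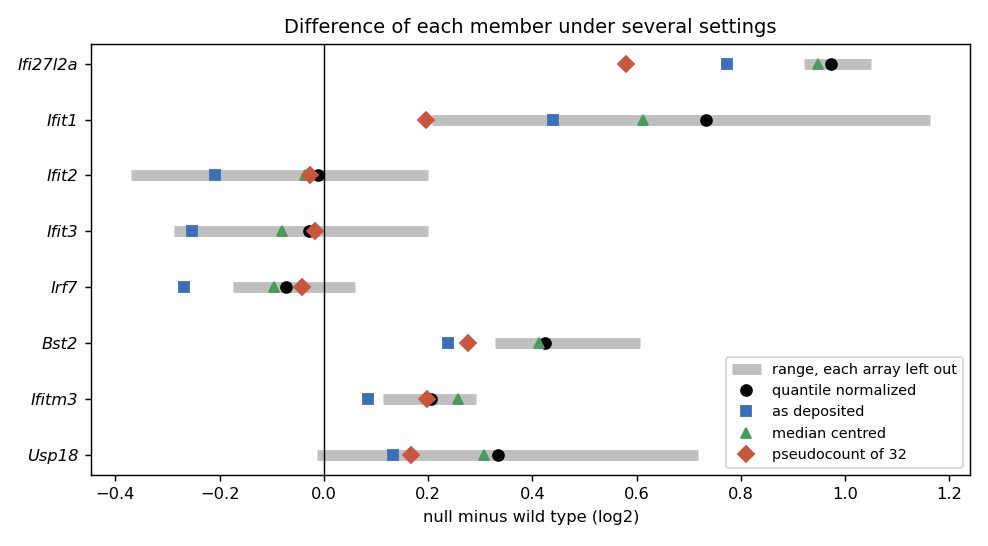
Null minus wild type difference (log2) of each measured gene with quantile normalized values (black), deposited values (blue), median centred values (green) and a pseudocount of 32 (red), with the range over leaving out each array in turn in grey. Ifi27l2a lies between 0.58 and 1.05 in all of these, whereas the ranges of Ifit2, Ifit3, Irf7 and Usp18 cross 0.

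Wild type replicate 2 was the lowest of the 6 arrays for 6 of the 7 genes (Ifit1, Ifit2, Ifit3, Bst2, Ifitm3 and Usp18), the exception being Irf7, lowest in null replicate 1. Across the 9518 genes above background that array was lowest in 19.8%. Wild type replicate 1 was highest for 4 of the 7 genes and null replicate 2 for 2. Relative to their own 6-array means, Ifit1, Ifit2 and Usp18 stood at -1.43, -0.71 and -0.86 in wild type replicate 2. Ifi27l2a stood at -0.51 there, between the other wild type arrays. The pattern was noticed in these values and has no test. Wild type replicate 2 also read highest for the mean of 5 neuron markers, at 10.29. That mean was 8.38 and 8.60 in wild type replicates 1 and 3 and 9.08, 9.52 and 8.46 in null replicates 1 to 3. Its mean of supporting cell markers was the lowest of the 6 arrays, at 6.54. The part of the make-up of that pool in the pattern was not tested.

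**Figure D3:**
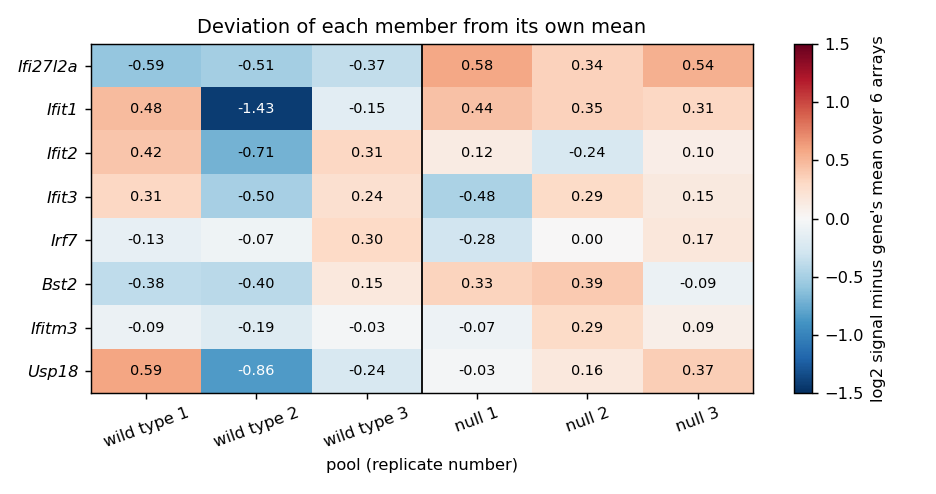
Log2 signal of each measured gene minus its own mean over the 6 arrays, by pool; red is above and blue below the mean. Ifi27l2a changes colour at the genotype boundary, from -0.37 or lower in wild type to 0.34 or higher in null pools, while the Ifit genes and Usp18 are lowest in wild type replicate 2 or, for Ifit3, nearly as low in null replicate 1.

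The titles carry a number, 14 for replicate 1 and 16 for replicates 2 and 3 of each genotype, of unstated meaning. Ifi27l2a differed by 1.16 between the single arrays numbered 14 and by 0.88 between the pairs numbered 16. Bst2 differed by 0.72 and 0.28 in the same way. Ifit1 differed by -0.041 and 1.12, Ifit3 by -0.78 and 0.35 and Usp18 by -0.62 and 0.81, so the sign of these 3 genes was not shared by the numbers. Ifit2 (-0.30 and 0.13) also differed in sign, and Irf7 (-0.16 and -0.03) and Ifitm3 (0.01 and 0.30) did not.

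Other features of the pools also read differently on average between the genotypes, and their part in the difference of Ifi27l2a was not tested. The 3' minus 5' log2 signal of beta-actin, a sign of RNA integrity, was 0.76, 0.71 and 0.80 in wild type and 0.89, 0.86 and 1.08 in null arrays as deposited. That of Gapdh overlapped, from 0.19 to 0.32 in wild type and from 0.18 to 0.52 in null arrays. Of 3 measured genes listed as vestibular markers, Oc90 and Hmx3 were higher in each null array, by 0.86 and 0.66 (limma adjusted p = 0.971 and 0.895). Over all genes 5.62% were higher in each null array and 4.98% lower in each. Oc90 read high in both groups (10.23 and 11.09), and Hmx2 overlapped and was not above background. The list mean ran from 5.33 to 5.95 in wild type and from 5.93 to 6.97 in null. Whether these genes reflect vestibular tissue was not tested. Of 4 erythroid markers Alas2 (-0.79) and Slc4a1 (-1.76, with a null mean of 3.43 near background) were lower in each null array (limma adjusted p = 0.896 and 0.455). Epb42 (0.78) and Hbb-bh1 (0.14), neither above background, read higher on average. The erythroid list mean ran from 2.71 to 3.76 in wild type and from 2.03 to 3.86 in null. All 6 cartilage and bone markers read lower in null pools, and their list means did not overlap, from 10.34 to 10.59 in wild type and from 10.20 to 10.29 in null, but they overlapped on the deposited values and after median centring, where 4 of the 6 read lower. All 8 supporting cell markers read higher (from 6.54 to 6.92 and from 6.90 to 7.35), and all 5 endothelial markers read lower (from 6.96 to 7.19 and from 6.76 to 7.02).

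Markers of blood-borne cells that make or respond to interferon were read beside these genes, and their part was not tested. Of 13 macrophage markers 7 read higher and 6 lower in null pools (2 and 11 on the deposited values, 5 and 8 after median centring), and their mean log2 signal ran from 6.59 to 6.80 in wild type and from 6.32 to 7.01 in null arrays. All but Itgam lay above background in both groups. Mrc1 alone of the 13 did not overlap (-0.34 ± 0.12 SE, limma adjusted p = 0.974), where 10.6% of all genes did not. Of 5 markers of plasmacytoid dendritic cells, the main source of type I interferon in blood, 1 read higher and 4 lower, with means from 3.31 to 4.38 and from 3.13 to 3.60. Ccr9, Cd209d and Klk1 of that list were not above background in either group. The 2 above it, Tcf4 (9.89 and 9.93) and Pacsin1 (5.55 and 5.36), overlapped between the groups. Whether their signal comes from these cells here was not tested. Of 7 T and NK cell markers 1 read higher and 6 lower, 0 were above background in both groups, and their means did not overlap (from 0.70 to 1.01 and from -0.24 to 0.07). Prf1, the perforin gene of that list, was above background in wild type alone (4.00 and 2.41). B cell markers had 2 of 5 above background (from 2.27 to 3.24 and from 0.78 to 3.75), with 1 of the 5 higher and 4 lower. Those of neutrophils and myeloid precursors had 4 of 8 above background (from 3.34 to 4.00 and from 3.90 to 4.50). Among these 8, 5 read higher and 3 lower, and among the 4 above background 2 read higher and 2 lower.

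Y-linked signal varied from pool to pool. The mean of 3 Y-linked genes was 0.24, 5.61 and 1.19 in wild type and 3.10, 5.92 and 5.54 in null replicates 1 to 3. Wild type replicates 1 and 3 lay below every null array, and wild type replicate 2 lay between null replicates 2 and 3. In wild type replicates 1 and 3 each of the 3 genes lay under the receptor background of the same array. Xist, the X inactivation gene, read 12.23, 10.38 and 12.29 in wild type and 12.24, -3.93 and 11.91 in null replicates 1 to 3. The part of Y-linked and Xist signal in the difference of Ifi27l2a was not tested.

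The promoters of most of these genes hold the letters of the interferon response element. RefSeq windows of assembly GRCm38.p6, from 250 bases before to 50 after the start, matched 7 of the 9 genes by symbol; Ifi27l2a and Usp18 were not among them. The core of the response element, GAAA, any 2 bases and GAAA (on the other strand TTTC, any 2 bases and TTTC; overlapping matches counted), stood in the windows of 5 of these 7 genes (Ifit1, Ifit3, Isg15, Bst2 and Ifitm3). It stood in 33 of 96 other interferon pathway genes (34.4%) and in 3.99% of all 27025 genes, or 3.44% of all windows. Those of 3 measured members with a match before the start are shown, so that the element can be read beside their values. Capitals mark the matches, and each sequence is on the strand of its gene:
Ifit1, chr19:34640770-34640828, plus strand: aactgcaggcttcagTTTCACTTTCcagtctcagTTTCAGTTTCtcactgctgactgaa
Ifit3, chr19:34583358-34583431, plus strand: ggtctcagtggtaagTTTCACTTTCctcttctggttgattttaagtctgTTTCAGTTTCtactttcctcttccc
Bst2, chr8:71537572-71537617, minus strand: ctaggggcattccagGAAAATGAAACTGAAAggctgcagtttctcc

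Counted from the start, the Ifit1 sequence runs from -119 to -61 and the Ifit3 sequence from -171 to -98. Both matches of Ifitm3 lay after the start, and the windows of Ifit2 and Irf7 held none. Of the measured members with a match, Bst2 differed by 0.42, Ifitm3 by 0.21 and Ifit3 by -0.028, and the size was not determined for Ifit1. Ifit2 and Irf7, without a match in these windows, differed by -0.012 and -0.07. The core of the gamma-activated site, TTCNNNGAA, was found in 3 of 7 member genes, beside 24% of the other interferon pathway genes and 9.55% of all genes. A match is a description of the letters and does not show binding.

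Counts of the wider interferon system lay near those of all genes. Of 163 listed genes 122 were measured, with 68 higher and 54 lower in null pools. The median difference was 0.026, against 0.0062 over all genes. In limma 0 of 122 passed the adjusted threshold, and 5 (4.1%) had an unadjusted p under 0.05, beside 4.46% of all genes. The arrays did not overlap for 13 (10.7%), beside 10.6% of all genes: 10 were higher in each null array (8.2%, beside 5.62%) and 3 lower in each (beside 4.98%). On the values as deposited, where the median gene differed by -0.14, 31 read higher and 91 lower. On those values 8 genes did not overlap, 1 higher and 7 lower in each null array, a count added after the values were seen. Most of the separations named below depend on the scaling. Of the 13 genes 3 (Ifi27l2b, Irf1 and Il10rb) kept theirs on the deposited values, and 11 kept theirs after median centring (all but Il10rb and Cxcl10). Ifi27l2b and Irf1 kept theirs under both. The words higher or lower in each null array refer to the quantile normalized values.

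Interferon genes themselves were mostly not above background. Of 10 measured ligands 1, the type I interferon gene Ifnz, was above background in both groups (5.62 and 5.74). Ifnb1, the interferon beta gene, had means of 2.92 and 2.79, neither above background.

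Receptors and signalling genes were all above background. Ifnar1, a chain of the type I receptor, read 7.84, 7.82 and 7.83 in wild type and 8.07, 8.17 and 8.04 in null arrays, a difference of 0.26 ± 0.10 (SE, limma adjusted p = 0.980). Its partner Ifnar2 differed by -0.15 ± 0.14, and Il10rb, a chain shared with the interleukin 10 and lambda interferon receptors, was lower in each null array (-0.20 ± 0.12). Of 10 signalling genes 9 read higher in null pools, beside 51.3% of all genes, around a median of 0.11. This count was taken on quantile normalized values alone, and the median gene differed by -0.14 on the deposited values. The kinase gene Jak1 differed by 0.01 ± 0.18. Irf9 and Stat2, named for their place in the type I factor complex after their values were seen, differed by 0.42 ± 0.24 and -0.018 ± 0.23. Socs3, an inhibitor of cytokine signalling, was higher in each null array (0.29 ± 0.14, limma adjusted p = 0.980). That separation is nearly a tie, since wild type replicate 1 and null replicate 2 both read 6.85.

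Among viral sensors and their adaptors 6 of 12 read higher, with Tbk1, the kinase that activates Irf3, at 0.03 ± 0.14. Of 5 interferon regulatory factors besides Irf7 and Irf9, Irf3 was higher in each null array (0.13 ± 0.11, and -0.00026 as deposited) and Irf1, which interferon gamma induces, lower in each (-0.22 ± 0.11). Ifitm2, a neighbour in the family of Ifitm3, differed by 0.07 ± 0.11. In the Isg15 conjugation pathway the ubiquitin ligase gene Trim25 differed by -0.05 ± 0.10.

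Ifi27l2b, the 1 measured relative of Ifi27l2a and a gene of the same chromosome, 12, read 0.98, 2.98 and 2.63 in wild type and 4.04, 4.05 and 3.37 in null replicates 1 to 3. All null arrays were higher, as for Ifi27l2a. The null mean of 3.82 was above background and the wild type mean of 2.20 was not, so the size of the difference is not determined (limma adjusted p = 0.971, unadjusted 0.034). The gene falls outside the naming rule and was singled out after its values were seen, and cross-hybridisation between Ifi27l2a and Ifi27l2b was not tested.

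Of 51 antiviral effector genes 28 read higher, and the median was 0.026. Oas1a, which makes the second messenger that activates RNase L, read 4.73, 4.25 and 3.42 in wild type and 4.85, 5.19 and 5.78 in null arrays. Null replicate 1 lay just above wild type replicate 1, and Oas1a differed by 1.14 ± 0.42 (SE, limma adjusted p = 0.974). In wild type replicate 3 Oas1a lay under the 95th percentile of the receptor background of that array, 3.96. Part of the size of its difference thus rests on signal near background. Rtp4, an interferon-induced chaperone gene, was higher in each null array by 0.36 ± 0.15 (SE). Ifi30, a lysosomal thiol reductase gene, differed by -0.23 ± 0.14.

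Of 15 antigen presentation genes 3 were higher in each null array and 1 lower in each, beside 5.62% and 4.98% of all genes. H2-Ab1, a class II chain, read 3.63, 3.57 and 3.88 in wild type and 4.17, 4.28 and 4.12 in null arrays (0.50 ± 0.13 SE, limma adjusted p = 0.887). Its wild type mean of 3.69 was near the background of 3.63, and 4 of its 6 arrays passed the background of the same array. The size of the difference is therefore not determined. H2-Eb1, a class II chain named for comparison after its values were seen, went the other way (-0.35 ± 0.43). The class I gene H2-D1 differed by 0.28 ± 0.14, the proteasome activator gene Psme1 by 0.20 ± 0.11, the immunoproteasome gene Psmb10 by -0.26 ± 0.13 and B2m, the light chain of class I molecules, by -0.26 ± 0.18. None of 6 chemokine genes was above background in both groups.

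**Figure D4:**
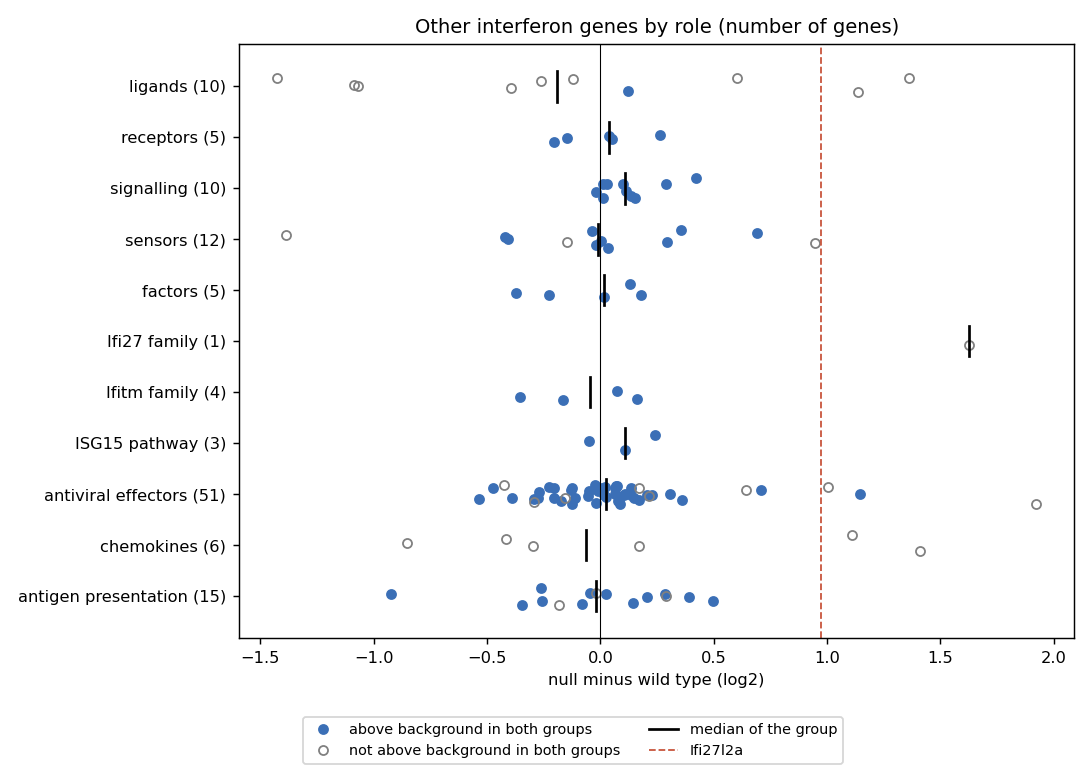
Null minus wild type difference (log2) of each of the 122 other interferon genes, by role, with the number of genes in brackets and the median of each role as a black bar; open circles are genes not above background in both groups. Of the 92 genes above background in both groups, Oas1a at 1.14 is the one such gene to the right of the dashed line at the 0.97 of Ifi27l2a. Its value in wild type replicate 3 lay under the background of that array.

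Genes were also ordered by how like Ifi27l2a they were over the 6 arrays, as a description, since that pattern is the one by which Ifi27l2a was chosen. Likeness was the root mean square difference of the 6 values after each gene's own mean was subtracted, over 9747 genes. Nearest were the neurotrophic factor gene Nrtn (0.15 on the log2 scale), the ubiquitin ligase adaptor gene Asb13 (0.15), the ribosome assembly gene Nle1 (0.22) and the lysosomal transporter gene Slc66a1 (0.22). Nrtn read 5.16, 5.13 and 5.61 in wild type and 6.25, 5.95 and 6.04 in null arrays. Among the 7 members Bst2 was nearest (0.36, with 213 genes nearer) and Ifitm3 next (0.43, with 981 nearer). For Irf7, Usp18, Ifit1, Ifit2 and Ifit3 the number of nearer genes ran from 5959 to 7946.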

How the data were processed

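Per the labels' protocols, biotin-labelled cRNA from each of 6 RNA pools was hybridised to 1 Affymetrix array. The authors deposited 1 log2 value per probe set and array; the log base was inferred from the range, and how signals were summarised or normalized is not given in the sources used here. Array medians of the deposited log2 values ran from 5.61 to 6.36, so arrays were quantile normalized after 64 control probe sets were left out. No filter on level was applied. Of 22626 probe sets 20380 were annotated to 1 gene, 691 to several and 1555 to none, per the platform annotation; symbols were looked up in RefSeq genes of GRCm38.p6 by Entrez identifier, where 29 had no match. Where a gene had several probe sets, the one highest on average was used. Genotypes came from the sample titles.

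The 2 genotypes were fitted in R 4.3.3 with limma 3.58.1 (lmFit, then eBayes; genotype only, two-sided). Adjustment was Benjamini-Hochberg across the whole set of probe sets, and the procedure was tested on simulated data. Alternatives were the deposited values, median centring, a trended and robust variance, a block for replicate number or for title number, array weights (statmod 1.5.0), a filter at the 40th percentile, a pseudocount of 32, the mean over probe sets of a gene, and leaving out arrays. Members and lists were chosen with earlier results of these data known. Named besides the members and Igf1 were up to 10 pathway genes above background whose arrays did not overlap, by smallest p, the gene with the highest mean of each role, and the 4 genes most like Ifi27l2a.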

Additional observations from a re-analysis of the deposited data

How the results depend on the processing

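The count of probe sets past the threshold was 0 in limma under all 15 alternatives. The Ifi27l2a difference of 0.97 was 0.77 on deposited values and 0.58 with a pseudocount of 32, a setting that shrinks low signals by construction, and ran from 0.92 to 1.05 with single arrays left out. Leaving out single arrays moved the median of the 7 other members between -0.012 (wild type replicate 2 left out) and 0.29 (null replicate 1 left out), and 3 to 7 of them read higher. Their adjusted p was 0.725 or more throughout. The pathway median of 0.026 was -0.15 with the values as deposited and ran from 0.0043 to 0.061 with single arrays left out. Ifit2 ran from -0.37 to 0.20, Ifit3 from -0.29 to 0.20, Irf7 from -0.17 to 0.059 and Usp18 from -0.012 to 0.72 with single arrays left out. Without both arrays of title number 14, Ifit2 was 0.13 and Ifit3 0.35. The cause of these sign changes was not tested.

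With the replicate number as a block 0 probe sets passed in limma, and 1327 had an unadjusted p under 0.05, against 1130 without it. The block left the Ifi27l2a difference at 0.97, the member median at 0.21 and the pathway median at 0.026. Deviations of same-numbered arrays correlated at 0.23, 0.35 and 0.066 across 6196 genes for replicates 1 to 3. Differently numbered arrays ran from -0.28 to 0.15, the highest being wild type replicate 3 with null replicate 1. Replicates 1 and 2 thus matched their own number best, and wild type replicate 3 did not. Whether the numbers pair the samples is not settled, and the main fit did not use them. The precision is limited by 3 arrays a genotype, and signal near the receptor background, as for Ifit1, has no determined size.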
